A study of Mus musculus with 6 samples.

Results

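10 genes of the bHLH-PAS family that pair with ARNT, or are ARNT themselves, were examined in mouse embryonic stem (ES) cells after induction of one of them, Sim2. They were chosen by name: Sim2, its paralog Sim1, the partner genes Arnt and Arnt2, and the genes of other proteins that use the same partner, Hif1a, Epas1, Ahr, Ahrr, Npas1 and Npas3. All 10 of 10 names were found among the 22602 genes of the table, which gives mRNA levels as RPKM, that is, reads scaled to cDNA length and to library size. The measurements came from 6 libraries. Of these, 3 were from clones named A6, B8 and C4. In each of them a mouse Sim2 cDNA with a Flag tag sits at the ROSA26 locus under a CMV-derived promoter that a tetracycline-regulated transactivator switches on. The other 3 were separate cultures, numbered 0, 1 and 2, of the parental line EB3 (EBRTcH3), which has the same regulated locus and no Sim2-Flag. Every culture, EB3 included, had LIF, and all had been without tetracycline for 26 h when RNA was taken. Each clone is represented by 1 culture, so the effect of Sim2 and of deriving a clone cannot be told apart, and p-values measure the spread between these cultures.

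Proteins of this family carry a basic region that contacts DNA, a helix-loop-helix, and PAS domains, and they act as dimers. ARNT, and in neurons more often ARNT2, is the general partner. SIM1, SIM2, HIF-1alpha (Hif1a), HIF-2alpha (Epas1), the aryl hydrocarbon receptor (Ahr), its repressor (Ahrr), NPAS1 and NPAS3 each bring their own specificity to the dimer. SIM2 does not pair with itself, and the SIM and NPAS factors are best known from the developing nervous system, where SIM1 is needed for neurons of the hypothalamus. HIF proteins are degraded in the presence of oxygen, and AHR waits in the cytoplasm with chaperones until a ligand binds, so mRNA is only 1 layer of control for both.

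Members of the family resemble each other most where they bind DNA and dimerize, and reads from one paralog could in principle be counted for another. The coding sequence of that region is shown for 3 paralog pairs from the mm9 annotation (53 codons each, 5′ to 3′, positions counted from the first codon of the longest annotated coding sequence), with capitals at the bases that differ within the pair. Sim2 and Sim1 differ at 34 of 159 bases and at 2 of 53 amino acids.
Sim2, codons 1 to 53: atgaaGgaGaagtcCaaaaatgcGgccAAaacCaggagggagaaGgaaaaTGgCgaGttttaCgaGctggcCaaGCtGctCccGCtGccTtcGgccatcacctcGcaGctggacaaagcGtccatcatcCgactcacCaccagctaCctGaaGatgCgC
Sim1, codons 1 to 53: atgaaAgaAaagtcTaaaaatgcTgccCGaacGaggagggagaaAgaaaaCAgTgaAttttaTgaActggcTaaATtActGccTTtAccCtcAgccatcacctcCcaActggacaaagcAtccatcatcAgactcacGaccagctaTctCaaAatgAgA
Arnt and Arnt2 differ at 36 of 159 bases and at 3 of 53 amino acids.
Arnt, codons 90 to 142: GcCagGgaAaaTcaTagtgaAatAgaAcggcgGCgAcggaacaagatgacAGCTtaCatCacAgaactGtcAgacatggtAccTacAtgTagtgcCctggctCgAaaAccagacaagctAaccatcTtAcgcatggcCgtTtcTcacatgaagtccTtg
Arnt2, codons 64 to 116: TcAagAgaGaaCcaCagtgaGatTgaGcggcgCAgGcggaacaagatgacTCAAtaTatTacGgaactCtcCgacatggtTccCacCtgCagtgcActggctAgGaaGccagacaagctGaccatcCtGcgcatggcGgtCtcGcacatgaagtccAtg
Hif1a and Epas1 differ at 51 of 159 bases and at 9 of 53 amino acids.
Hif1a, codons 18 to 70: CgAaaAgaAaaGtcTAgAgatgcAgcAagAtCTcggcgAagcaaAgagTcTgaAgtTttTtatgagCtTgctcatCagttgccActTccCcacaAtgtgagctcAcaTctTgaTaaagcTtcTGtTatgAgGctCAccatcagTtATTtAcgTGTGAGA
Epas1, codons 15 to 67: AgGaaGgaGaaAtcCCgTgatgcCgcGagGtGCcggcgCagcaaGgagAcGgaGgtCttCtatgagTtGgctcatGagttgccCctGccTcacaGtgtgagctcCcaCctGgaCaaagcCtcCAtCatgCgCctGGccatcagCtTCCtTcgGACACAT
The pairs are thus close in protein and apart in DNA. The longest run of identical bases shared by the annotated transcripts was 26 for Sim2 and Sim1, 20 for Arnt and Arnt2 and 12 for Hif1a and Epas1, all far shorter than a sequenced read. A search of the mm9 genome for copies of at least 100 bases at 90% identity or more found 0 outside their own gene for 9 members. For Ahr it found 1, of 120 bases at 90.8% identity (chr5:140429223-140429342). The annotated Sim2 transcript used for both comparisons had only the 1974 coding bases, while its reads were scaled to a cDNA of 3670. Sim2 sequence outside the coding part was therefore not compared. No listed gene overlapped a member. Set against Sim2 in the same 53 codons, the number of identical amino acids was 44 for NPAS3, 38 for NPAS1, 32 for HIF-1alpha, 30 for HIF-2alpha, 22 for AHRR, 20 for AHR and 15 for ARNT and for ARNT2. The order follows the division of the family into partners and the ARNT class.

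Depth was similar in all libraries, 25095861 to 28269340 reads. In each library more genes had 2 reads (724 to 777) than 1 read (177 to 232), so both mates of a pair may have been counted. Read counts given here would then stand for fewer fragments, and the limits set by a count of 0 would be higher. ES cell markers were high (Pou5f1 1634, Nanog 367 and Esrrb 316 RPKM on average over the 6 libraries), and 0 of 6 were called different (limma, 1 at an unadjusted p under 0.05). That one was Zfp42, at 424 ± 12.8 RPKM in the clones and 525 ± 12.6 in EB3, with all clones below all EB3 cultures. Esrrb had all clones above all EB3 cultures, 352 ± 84.7 against 279 ± 4.54 RPKM (SD, n = 3 each). Such separations were found in 13.4% of tested genes downward and 12.7% upward. The other ES cell markers overlapped between groups. Most markers of other lineages were low. The summed level of 3 trophoblast genes was at most 2.24 RPKM, that of 3 primitive endoderm genes 1.67 to 1.88 RPKM in the clones and 0.764 to 1.34 in EB3, and the fibroblast gene Col1a2 averaged 0.0176 RPKM. Thy1 averaged 11.9 RPKM, and the neural markers Nes and Tubb3 averaged 7.38 and 102 RPKM. The sum of the 4 neural markers was 85.0 to 106 RPKM in the clones and 125 to 143 in EB3, most of it Tubb3. Tubb3 was lower in the clones (81.2 ± 12.6 against 123 ± 10.1 RPKM) and Nes was higher (8.84 ± 0.466 against 5.93 ± 0.158, SD, n = 3 each). Of the 4, 0 were called (limma). These 2 had an unadjusted p under 0.05, as did 17.8% of tested genes. EB3-0 stood apart from EB3-1 and EB3-2 in a way that followed cDNA length: the median log2 difference was 0.36 for cDNAs under 500 bases and -0.23 for the 2000 tested genes of 4000 to 6000 bases, the class of most members. For Hif1a, Epas1 and the ratio of partner to ARNT mRNA, results are given with and without EB3-0.

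The transgene was examined first (positions here and for the other members are in mm9). Sim2 (chr16:94085505-94348638, plus strand) stood at 196, 212 and 168 RPKM in A6, B8 and C4, from 18056, 20087 and 17471 reads. In EB3-0, EB3-1 and EB3-2 it had 0.130, 0.0917 and 0.104 RPKM, from 13, 9 and 10 reads. All clones lay far above all EB3 cultures, with a ratio of means of 1770.1. In the clones Sim2 stood at rank 273 to 382 among the 22602 genes, in the top 1.21% to 1.69%, whereas in EB3 it stood at rank 14235 to 14792. Sim2 reached the mean of 1 RPKM needed for testing only through the clones, which carry the transgene, so its test was fixed by the design. On the log2(RPKM + 0.5) scale the fold change was 8.30 (limma, adjusted p = 1.55e-08), but its size is set by the pseudocount, since EB3 lies near 0.1 RPKM. It was 7.44 with a pseudocount of 1, 9.85 with 0.1 and 10.73 with voom on the recovered reads, and the ratio of means is the measure to read. The table divides Sim2 reads by a cDNA of 3670 bases, while the annotated coding sequence has 1974. How much untranslated sequence the transgene carries is not given in the sources used here, so its level per base of transgene may be higher. Endogenous and transgenic transcripts are counted together.

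Sim1 (chr10:50615457-50708958, plus strand), the paralog that shares 51 of 53 amino acids with SIM2 in the region shown above, stayed at the floor. It had 0 reads in A6, 1 in B8 and 0 in C4, and 0, 4 and 0 reads in EB3-0, EB3-1 and EB3-2. A count of 0 allows up to 3 reads, or 0.0163 RPKM in A6. With 17471 to 20087 Sim2 reads in the same clones, counting of Sim2 reads as Sim1 reads was thus not detectable. No difference in Sim1 was detectable at this depth (exact permutation p = 1, 2-sided).

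**Figure D1:**
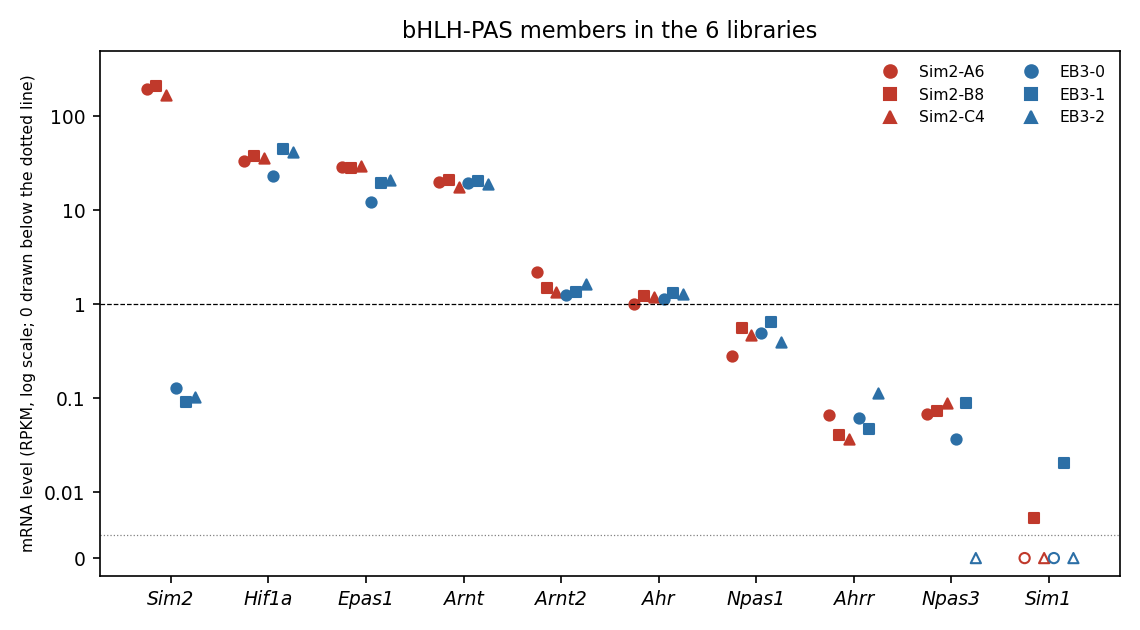
mRNA level in RPKM on a log axis for the 10 members (columns), with 1 point per library, red for Sim2 clones and blue for EB3, open points below the dotted line for 0 reads and a dashed line at 1 RPKM. Sim2 separates the groups by more than 3 decades, while Hif1a, Epas1 and Arnt lie between 12.3 and 44.8 RPKM in every library and Ahrr, Npas3 and Sim1 stay at or below 0.113.

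Arnt (chr3:95238312-95301161, plus strand), the general partner, stood at 19.8, 21.0 and 17.8 RPKM in the clones A6, B8 and C4, against 19.5, 20.8 and 19.3 in EB3-0, EB3-1 and EB3-2. The range of EB3 lay within that of the clones, and each library had more than 2000 Arnt reads (2176 to 2427). Its log2 fold change was -0.02 (95% interval -0.26 to 0.21; limma, adjusted p = 0.930), so the data allow a level in the clones of 0.838 to 1.16 times that of EB3. Its sign changed when C4 or EB3-1 was left out. Arnt2 (chr7:91394789-91558469, minus strand), the ARNT gene better known from neurons, was transcribed at a low level, 2.20, 1.50 and 1.34 RPKM in A6, B8 and C4 and 1.26, 1.36 and 1.64 in the EB3 cultures. Only A6 lay above all EB3 cultures. Its log2 fold change was 0.17 (95% interval -0.28 to 0.62; limma, adjusted p = 0.702), and without A6 it was 0.01 (adjusted p = 0.993 from limma). Arnt2 made up 9.96%, 6.68% and 7.01% of the summed RPKM of both ARNT genes in A6, B8 and C4 and 6.08% to 7.82% in EB3 (exact permutation p = 0.5, 2-sided). Over 90% of ARNT-type mRNA per length came from Arnt in every library.

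The question raised by these levels is how much Sim2 mRNA there was for each ARNT-type mRNA. Per length, Sim2 exceeded the sum of Arnt and Arnt2 by 8.89 times in A6, 9.44 times in B8 and 8.80 times in C4 (mean 9.04 ± 0.345, SD, n = 3). In EB3 the same ratio was 0.00414 to 0.00626. Divided by the coding length in place of the cDNA length, Sim2 would stand at 16.8 times the ARNT genes, a setting added after the values were seen. Before Sim2 is counted, the other 7 partner genes already summed to more mRNA than the ARNT genes. Their ratio was 2.91, 3.03 and 3.53 in A6, B8 and C4 and 1.80, 3.01 and 3.09 in EB3-0, EB3-1 and EB3-2, overlapping between groups (exact permutation p = 0.5, 2-sided). The difference of group means of its log2 was 0.30, and 0.04 without EB3-0. With Sim2 included, partner mRNA was 12.2 ± 0.352 times ARNT mRNA in the clones (SD, n = 3). Sim2 then accounted for 75.4%, 75.7% and 71.4% of all partner mRNA in A6, B8 and C4, and for at most 0.346% in EB3. Protein was not measured, and these are ratios of mRNA.

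**Figure D2:**
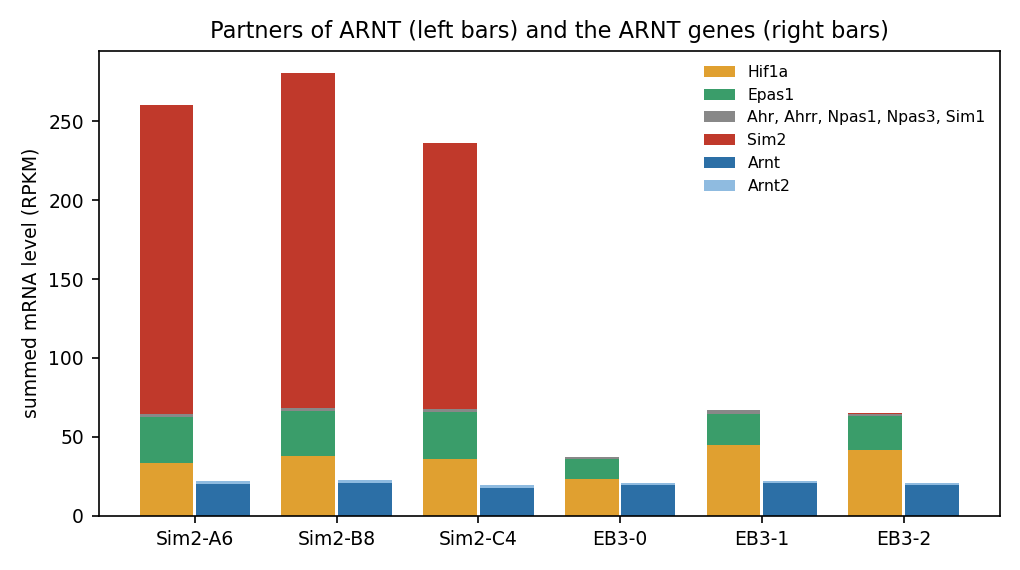
Summed mRNA level in RPKM per library, from 0, with the partners of ARNT stacked in the left bar (Hif1a, Epas1, the 5 low partners together, and Sim2) and Arnt with Arnt2 in the right bar. The right bars have nearly the same height in all 6 libraries, 19.1 to 22.5 RPKM, while the left bars of the clones are set by Sim2 and that of EB3-0 is the lowest, with 37.3 RPKM from the partners other than Sim2.

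The genes of the hypoxia-inducible factors made up almost all partner mRNA apart from Sim2, 95.4% to 97.8% in every library. Hif1a (chr12:75008854-75048517, plus strand), the broadly used oxygen-regulated subunit, had 33.5, 37.8 and 36.0 RPKM in A6, B8 and C4 and 23.3, 44.8 and 41.9 in EB3-0, EB3-1 and EB3-2. The clones lay between EB3-0 and the other EB3 cultures. The log2 fold change was 0.02, and its 95% interval was wide, -0.49 to 0.53 (limma, adjusted p = 0.973). Without EB3-0 it was -0.27 (adjusted p = 0.0908 from limma), with each clone then below both EB3 cultures, and without B8 it was -0.02. The direction for Hif1a thus depended on single libraries. How many tested genes had all clones below EB3-1 and EB3-2 was not counted.

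Epas1 (chr17:87153204-87232750, plus strand), which encodes the second HIF alpha subunit, known from endothelium and from oxygen sensing in the adult, was the member other than Sim2 that separated the groups. It stood at 29.2, 28.5 and 29.7 RPKM in A6, B8 and C4 and 12.3, 19.8 and 21.0 in EB3-0, EB3-1 and EB3-2. All clones were above all EB3 cultures and close to each other, 29.1 ± 0.628 against 17.7 ± 4.70 RPKM (SD, n = 3 each), a ratio of means of 1.64. Such a one-sided separation upward was found in 12.7% of tested genes. The log2 fold change was 0.74 (95% interval 0.31 to 1.16), the unadjusted p was 0.00380 and the adjusted p 0.106 (limma), so Epas1 did not pass the test over all genes. By exact permutation p was 0.1, and a design of 3 against 3 cannot go lower.

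EB3-0 was the low culture for both HIF genes. On the log2 scale, EB3-0 minus the mean of EB3-1 and EB3-2 was -0.70 for Epas1 and -0.88 for Hif1a, against a median of -0.23 for genes of 4000 to 6000 bases. Arnt (-0.04), Arnt2 (-0.18) and Ahr (-0.15), of like length, lay above that median. Without EB3-0 the fold change of Epas1 was smaller, 0.50 (95% interval 0.33 to 0.68), and passed the threshold with an adjusted p of 0.0236 (limma), in a fit that called 5.99% of tested genes. With the trends with length and GC content removed it was 0.59 (adjusted p = 0.0813 from limma). Epas1 was higher in the clones under all 14 alternatives, from 0.50 to 0.88, with adjusted p from 0.0236 to 0.257 (limma), and was called under 1 of them.

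**Figure D3:**
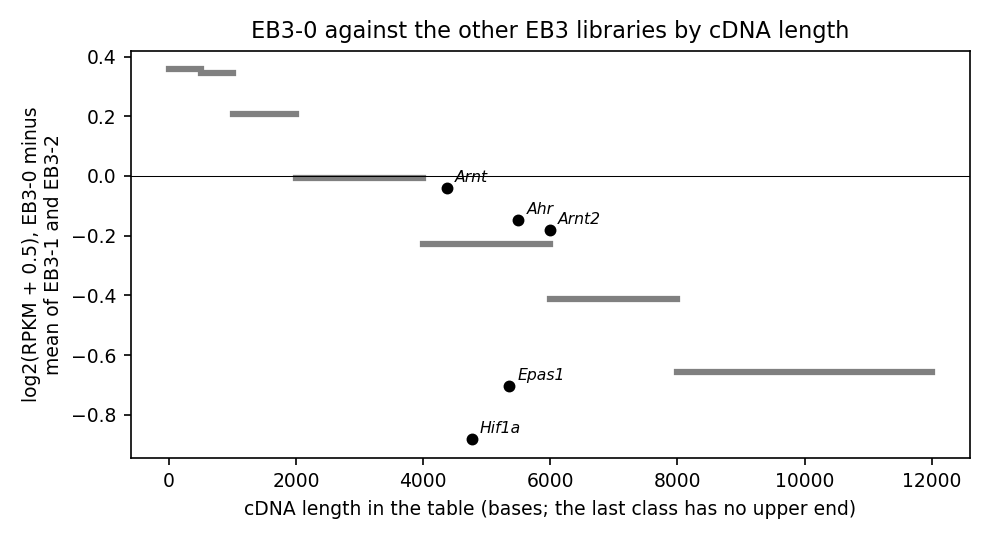
Difference of log2(RPKM + 0.5) between EB3-0 and the mean of EB3-1 and EB3-2 against cDNA length in bases, with grey bars for the median of all tested genes in 7 length classes and points for 5 members. The medians fall from 0.36 in the shortest to -0.66 in the longest class, and Hif1a at -0.88 and Epas1 at -0.70 lie well under the bar of their class.

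A ratio of both HIF genes within each library does not depend on the library's scale. The offset of EB3-0 followed cDNA length and is no single scale, so such a ratio need not remove it. The ratio also moves with Hif1a, which was lower in each clone than in EB3-1 and EB3-2. Epas1 was 46.5%, 42.9% and 45.2% of the sum of Hif1a and Epas1 in A6, B8 and C4, and 34.6%, 30.6% and 33.4% in EB3-0, EB3-1 and EB3-2. The groups did not overlap, and EB3-0 lay with the other EB3 cultures (44.9% ± 1.82 against 32.9% ± 2.04, SD, n = 3 each; exact permutation p = 0.1, 2-sided, the smallest possible). This ratio was chosen after the values of both genes had been seen, so its separation is only a description. How often ratios of other genes separate the groups was not counted. Endothelial genes were also examined. The summed level of the 4 mesoderm and endothelium markers was 5.56 to 9.03 RPKM in the clones and 2.94 to 3.92 in EB3. Tek, an endothelial receptor, made up most of it, with 3.63, 6.65 and 3.77 RPKM in A6, B8 and C4 and 1.64, 2.23 and 2.38 in EB3 (log2 fold change 0.97; limma, adjusted p = 0.102). Kdr, another endothelial receptor, had 1.38, 1.70 and 1.95 RPKM in the clones and 1.06, 1.04 and 1.11 in EB3 (limma, adjusted p = 0.210). Cdh5, which defines endothelium, was near 0 and under the filter, with 0.100, 0.204 and 0.106 RPKM in the clones and 0.0919, 0.0281 and 0.0192 in EB3. For Tek and Kdr all clones lay above all EB3 cultures, a separation found in 12.7% of tested genes. The clones also lay above EB3 for Cdh5, but A6 only just (0.100 RPKM against 0.0919 in EB3-0). Cdh5 was not tested, so that share does not apply to it. T, the other gene of that list, overlapped between groups. It had 0.448, 0.474 and 0.363 RPKM in the clones and 0.143, 0.493 and 0.412 in EB3. The summed primitive endoderm markers also separated the groups, among them Sox17 at 0.291 ± 0.00922 and 0.0551 ± 0.0536 RPKM (SD, n = 3 each), while Gata6 overlapped. All 3 genes of the primitive endoderm list were under the filter. How often genes or sums at such low levels separate the groups was not counted. Of the mesoderm and endothelium list 2 genes were tested and 0 were called (limma). Both were higher at an unadjusted p under 0.05, which 17.8% of tested genes reached in either direction. The part of both marker lists in the Epas1 level was not tested, and in bulk RNA more cells of a type and more RNA per cell cannot be told apart.

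**Figure D4:**
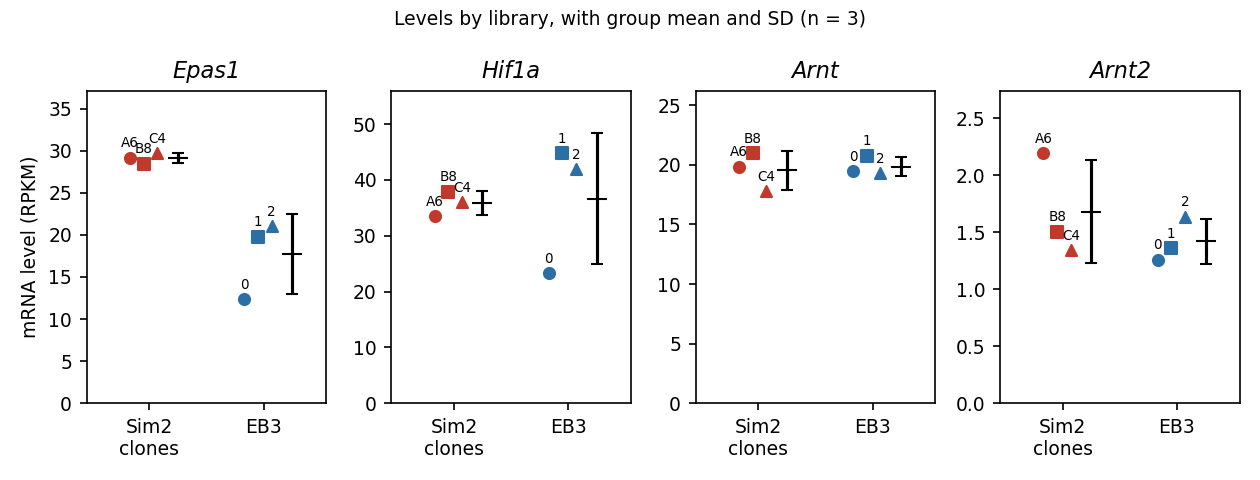
mRNA level in RPKM of Epas1, Hif1a, Arnt and Arnt2 by library (points, labelled with the clone or culture), with the group mean and SD in black (n = 3 each), all axes from 0. Epas1 is the one of these genes whose clones, 28.5 to 29.7, all lie above the EB3 cultures, and EB3-0 is the low culture for Epas1 and Hif1a.

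The remaining members were transcribed at low levels. Ahr (chr12:36182651-36219661, minus strand), the ligand-activated receptor, had 1.02, 1.23 and 1.21 RPKM in A6, B8 and C4 and 1.13, 1.31 and 1.30 in EB3-0, EB3-1 and EB3-2, from 140 to 193 reads. The groups overlapped, and the log2 fold change was -0.08 (95% interval -0.46 to 0.29; limma, adjusted p = 0.824). Ahrr (chr13:74348566-74429757, minus strand), which competes with AHR for ARNT, had 8, 5 and 5 reads in the clones and 8, 6 and 14 in EB3, or 0.0374 to 0.113 RPKM (exact permutation p = 0.3, 2-sided). A difference in Ahrr was not detectable at this depth. Npas1 (chr7:17041070-17062129, minus strand) had 0.286, 0.557 and 0.474 RPKM in A6, B8 and C4 and 0.491, 0.644 and 0.403 in EB3, from 15 to 36 reads, with overlapping groups (exact permutation p = 0.5, 2-sided). Npas3 (chr12:54349664-55173162, plus strand), the partner closest to SIM2 in the region shown above after SIM1, had 10, 11 and 15 reads in the clones and 6, 14 and 0 in EB3. The count of 0 in EB3-2 allows up to 0.0196 RPKM, and the groups overlapped (exact permutation p = 0.3, 2-sided).

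Ordered by mean level over the 6 libraries, the members other than Sim2 ran from Hif1a (36.2 RPKM) through Epas1 (23.4), Arnt (19.7), Arnt2 (1.55), Ahr (1.20), Npas1 (0.476), Ahrr (0.0614) and Npas3 (0.0595) to Sim1 (0.00427). In the clones Sim2 stood above all of them, 5.38 ± 0.622 times Hif1a (SD, n = 3), and in EB3 it stood between Npas1 and Ahrr by mean. Neighbours were compared within each library by an exact sign-flip permutation test over the 6 libraries, whose smallest p is 0.031. Over all libraries Epas1 and Arnt did not differ beyond their spread (adjusted p = 0.464), but this pools groups of unlike order. Epas1 was above Arnt in 3 of 3 clones (means 29.1 and 19.5 RPKM) and in 1 of 3 EB3 cultures (means 17.7 and 19.8), so in EB3 Arnt stood above Epas1 by mean. Ahrr and Npas3 (adjusted p = 1) and Npas3 and Sim1 (adjusted p = 0.0833) did not differ beyond their spread either, and by mean Npas3 stood above Ahrr in the clones and below it in EB3. The other 5 pairs kept their order in 6 of 6 libraries and reached the smallest p, 0.05 after adjustment over the 8 pairs. The largest step between neighbours was from Arnt to Arnt2, 3.31 ± 0.227 on the log2(RPKM + 0.5) scale (SD, n = 6). It parts Hif1a, Epas1 and Arnt from the members ordered here that had lower levels.

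Counted together, 6 of the 10 members had a mean of at least 1 RPKM and were tested with all other genes, and 4 (Sim1, Ahrr, Npas1 and Npas3) were below it. Sim2 passed this filter only through the clones, which carry the transgene, so its call was fixed by the design and is no result about the family. Of the 6, 1 was called (limma, adjusted p under 0.05), Sim2 itself, where 0.699% of the 11595 tested genes were called (0.345% with a higher level in the clones and 0.354% with a lower one). Unadjusted, 2 of 6 had p under 0.05 in limma, Sim2 and Epas1, against 17.8% of tested genes. Of the 5 tested members apart from Sim2, only Epas1 did. Sim2 was also the 1 member called with voom on the recovered reads, where 0.552% of tested genes were called, and with length and GC trends removed, where 1.70% were. Removing those trends also moved the split of calls over all genes from 40 higher and 41 lower to 116 higher and 74 lower. The clones lay above all EB3 cultures for Sim2, by design, and for Epas1, and below them for 0 members, against 12.7% and 13.4% of tested genes. The median log2 fold change of the 5 tested members apart from Sim2 was 0.02, and that of all tested genes -0.01.

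**Figure D5:**
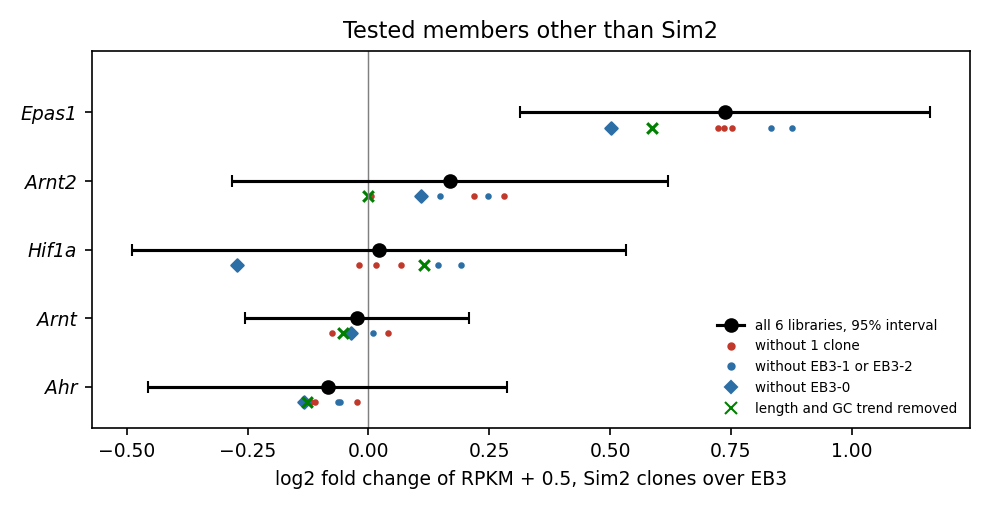
Log2 fold change of RPKM + 0.5 between Sim2 clones and EB3 for the 5 tested members other than Sim2, as black points with 95% intervals from limma, and below each the values without 1 library and with length and GC trends removed. The interval of Epas1, 0.31 to 1.16, lies above 0 and those of the other 4 members include 0, and the value without EB3-0 stands apart for Hif1a and Epas1.

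Core letters read by ARNT dimers were sought in the promoters of the members. SIM-ARNT and HIF-ARNT dimers are known to prefer sites around ACGTG, and AHR-ARNT around GCGTG. Sequences were found for 7 of the 10 members in RefSeq (build GRCm38.p6, which is not the build of the mRNA table). Sim2, Epas1 and Ahr had no entry. In the 250 bases before the start, on either strand, ACGTG was present in 16.6% of all 32851 promoters and GCGTG in 28.2%. Among the members, ACGTG stood in those of Hif1a and Npas3, and GCGTG in those of Arnt and Ahrr. The promoters of Hif1a, with 3 overlapping or separate matches to ACGTG, of Ahrr, with 3 matches to GCGTG, and of Arnt, with 1, are shown 5′ to 3′ with the matches in capitals.
Hif1a (chr12:73907617-73907866, plus strand): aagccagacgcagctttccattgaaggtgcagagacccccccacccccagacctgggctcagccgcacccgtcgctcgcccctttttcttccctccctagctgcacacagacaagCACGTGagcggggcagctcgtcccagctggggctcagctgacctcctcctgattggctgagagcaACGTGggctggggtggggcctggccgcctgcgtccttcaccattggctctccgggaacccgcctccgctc
Ahrr (chr13:74292332-74292581, minus strand): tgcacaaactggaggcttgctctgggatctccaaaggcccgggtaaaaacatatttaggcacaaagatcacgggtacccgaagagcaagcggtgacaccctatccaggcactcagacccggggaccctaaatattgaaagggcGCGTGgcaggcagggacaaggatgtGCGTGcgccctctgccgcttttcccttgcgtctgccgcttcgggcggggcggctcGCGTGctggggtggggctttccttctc
Arnt (chr3:95434140-95434389, plus strand): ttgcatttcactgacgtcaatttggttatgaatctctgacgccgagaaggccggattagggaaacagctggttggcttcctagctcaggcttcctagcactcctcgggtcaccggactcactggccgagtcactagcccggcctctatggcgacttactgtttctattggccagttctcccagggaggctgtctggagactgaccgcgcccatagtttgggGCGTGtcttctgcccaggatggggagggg
In Hif1a the matches begin 135, 134 and 70 bases before the start, the first pair forming a palindrome. In Ahrr, itself known as a target of AHR, they begin 107, 82 and 27 bases before the start, and in Arnt 29 bases before it. Of these 3 genes, Hif1a and Arnt were tested and not called, and a match is a description of letters and not of binding.

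Genes that work with the members were counted from lists of known roles. Over all tested genes, 0.345% were called higher, 0.354% lower and 17.8% had an unadjusted p under 0.05 (limma). Of 12 other bHLH-PAS genes, among them the clock factors and the NCOA coactivators, 8 were tested and 0 were called, with 0 at an unadjusted p under 0.05 (limma) and a median log2 fold change of 0.10. With voom, too, 0 genes were called in this list, in the next and among the SIM and NPAS related genes. The highest was the coactivator Ncoa3, at 47.1 ± 4.10 RPKM in the clones and 39.8 ± 8.56 in EB3 (SD, n = 3 each). The clock gene Per1, the next highest, was at 7.69 ± 0.698 and 7.43 ± 0.182 RPKM. Ncoa3 overlaps the listed gene Sulf2. Of 12 genes for turnover and co-activation of HIF alpha proteins, all 12 tested, 0 were called, 3 had an unadjusted p under 0.05 (limma; 2 higher, 1 lower), and the median was -0.01. With length and GC trends removed 1 gene of this list was called, Rbx1, a ring finger subunit of the same class of ubiquitin ligase (log2 fold change 0.32; limma, adjusted p = 0.0481, against 0.19 and 0.260 without that step). The elongin genes Tceb2 and Tceb1, parts of the ubiquitin ligase that marks HIF alpha subunits, were highest. Tceb1 was at 77.5 ± 6.83 RPKM in the clones and 101 ± 6.42 in EB3 (limma, adjusted p = 0.106), but with length and GC trends removed its log2 fold change turned from -0.39 to 0.12. Tceb2 was at 228 ± 15.2 and 263 ± 62.7 RPKM. Both have copies elsewhere in the genome, and their values are uncertain where reads were shared.

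Of 14 genes known as HIF targets, 12 were tested, 0 were called higher and 1 lower (limma, 1 higher and 3 lower at an unadjusted p under 0.05), with a median log2 fold change of -0.18. Over all tested genes the shares were 0.345% called higher, 0.354% called lower and 17.8% at an unadjusted p under 0.05 in either direction. The called HIF target was Bnip3, a mitophagy receptor. It had 17.2, 15.7 and 18.3 RPKM in A6, B8 and C4 and 39.2, 30.3 and 28.7 in EB3-0, EB3-1 and EB3-2. The log2 fold change was -0.91 ± 0.13 (SE; limma, adjusted p = 0.0334). It kept its sign in all 14 alternatives and its call in 6. Without any 1 of A6, B8, C4, EB3-1 or EB3-2 it was not called, with adjusted p of 0.101 to 0.133 (limma). With length and GC trends removed its log2 fold change was -0.69 and it was not called (adjusted p = 0.0618 from limma). Its call was also lost with no filter on low values (adjusted p = 0.0634 from limma) and with EB3-1 and EB3-2 averaged (adjusted p = 0.115 from limma). The mm9 genome holds 7 further stretches like Bnip3, one of 858 bases at 98.3% identity on chromosome 14, so its value is uncertain. Vegfa, the classical HIF target, was at 15.2 ± 1.41 and 14.5 ± 0.848 RPKM.

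Of 11 chaperones and targets of AHR, 7 were tested, 0 were called higher and 1 lower (limma, 1 and 1 at an unadjusted p under 0.05), with a median of 0.17. The same shares over all tested genes apply, 0.345% called higher, 0.354% called lower and 17.8% at an unadjusted p under 0.05. The called gene of this list was Ptges3, the p23 co-chaperone of HSP90. It had 128, 124 and 138 RPKM in A6, B8 and C4 and 226, 203 and 194 in EB3-0, EB3-1 and EB3-2. The log2 fold change was -0.67 ± 0.09 (SE; limma, adjusted p = 0.0285), kept in sign in all 14 alternatives and called in 7. The call was lost without A6, B8, C4, EB3-1 or EB3-2, with adjusted p of 0.0966 to 0.144 (limma). It was also lost with no filter on low values (adjusted p = 0.0532 from limma) and with EB3-1 and EB3-2 averaged (adjusted p = 0.120 from limma). A stretch of 1511 bases on chromosome 6 is 99.5% identical to its transcript, so its value is uncertain too. Cyp1a1, Cyp1a2 and Cyp1b1, the classical AHR target genes, were below 0.2 RPKM on average in every group. Of 10 genes tied to SIM and NPAS factors, 1 was tested and 0 were called (limma, 1 at an unadjusted p under 0.05), and 3 (Avp, Sst and Mmp3) had 0 reads in every library. The tested one was Trh, a neuropeptide gene that depends on SIM1 in the hypothalamus. It had 305, 540 and 505 RPKM in A6, B8 and C4 and 730, 661 and 631 in EB3, all clones below all EB3 cultures (log2 fold change -0.62, adjusted p = 0.173 from limma). Such a separation downward was found in 13.4% of tested genes. Snai2, next in level, was at 0.385 ± 0.152 and 0.443 ± 0.216 RPKM.

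Genes with the most similar pattern to each tested member were named by Pearson's r of log2(RPKM + 0.5) over the 6 libraries, as a description only, since many genes share the offset of EB3-0 or of the groups. They were Mfn1 (0.991) and Psen2 (0.986) for Arnt, Wdr91 (0.968) and Ccdc19 (0.966) for Arnt2, Ddx3y and Ralgapa1 (0.998 each) for Hif1a, 1200011I18Rik (0.997) and Narfl (0.994) for Epas1, and Pou3f1 (0.996) and Jub (0.981) for Ahr. For Sim2 they were Lrch1 (0.997) and Cbx6 (0.994). An r over 0.95 was reached by 338 genes with Hif1a, 153 with Sim2, 121 with Epas1, 38 with Ahr, 6 with Arnt and 2 with Arnt2.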

How the data were processed

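The deposited table holds RPKM for 22602 genes in 6 libraries. The authors mapped paired reads to mm9 with BWA at default parameters, counted exon coverage of each gene with a custom pipeline and normalised it to RPKM by the cDNA length in the table. Versions, strand use and the treatment of reads with several positions are not given in the sources used here. Every value was a whole multiple of 1 read (100%, within 0.01 read), which gave totals of 25095861 to 28269340 reads, in which both mates of a pair may have been counted. Intervals from limma measure the spread between libraries, and floors cover counting error only. The 0 remaining per-sample columns were left unused.

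Genes with a mean of at least 1 RPKM (11595, 51.3%) were tested on log2(RPKM + 0.5), whose fold changes understate those of low genes, with limma 3.58.1 (R 4.3.3; lmFit, eBayes with trend, no covariate), with Benjamini-Hochberg adjustment over all tested genes and a threshold of 0.05. Single values were compared by 2-sided exact permutation tests (scipy 1.17.1), whose smallest p is 0.1 for 3 against 3. Near copies were sought with blastn 2.17.0. The fit was tested on simulated reads with the same dispersion for all genes and no outlying library. It was not tested under an offset like that of EB3-0.

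Groups follow the sample titles. The members and lists were chosen with earlier results of these data known. Named genes were all members, called genes of each list (or the 2 highest), and the 2 genes most like each tested member. Outside this rule, Vegfa, the Cyp1 genes, Rbx1, the genes with 0 reads and the cell type markers were named after their values had been seen. Alternatives were pseudocounts of 0.1 and 1, no filter or a filter at 0.1 RPKM, median centring, voom on the recovered reads, removal of length and GC trends (splines with 5 degrees of freedom, 96.1% of tested genes), averaging EB3-1 with EB3-2, and leaving out each library.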

Additional observations from a re-analysis of the deposited data

How the results depend on the processing

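No paired analysis was possible because the clones and the EB3 cultures share no replicate numbers. The number of genes called, 81 in all 6 libraries, was 28 with no filter on low values, 190 with length and GC trends removed and 6 when the mean of EB3-1 and EB3-2 stood for both. Leaving out a clone gave 20 (A6), 17 (B8) and 7 (C4), and leaving out a parental culture gave 694 (EB3-0), 6 (EB3-1) and 6 (EB3-2). Of the members, 1 was called in each of these except without EB3-0, where 2 were, Epas1 joining Sim2. The ratio of Sim2 to Arnt plus Arnt2, 9.04, was 8.69 with trends removed, 9.82 with Arnt alone and 16.8 over the coding length, and 8.85 to 9.17 without 1 clone. Among small log2 fold changes that missed the threshold, that of Arnt ran from -0.0757 to 0.0407 without 1 library, above 0 without C4 and without EB3-1 (0.01). That of Hif1a ran from -0.27 to 0.19, below 0 without EB3-0 and without B8 (-0.02), and that of Arnt2 was -0.00104 with trends removed. The log2 fold change of Sim2 ran from 7.44 to 10.73 over all alternatives, set by the pseudocount. Over the alternatives, 0 to 1 HIF target, 0 to 3 AHR-related and 0 to 1 HIF turnover genes were called. The cause was not tested for the other changes. Between clones and EB3, the log2 ratio of the other partners to the ARNT genes differed by 0.04 to 0.43 and the share of Arnt2 by 0.159 to 1.80 percentage points over 9 alternatives each, and permutation tests of this size cannot pass 0.05. TMM scaling was not run, because no tool for it was used with RPKM. Depth limits what can be said of Sim1, Ahrr, Npas1 and Npas3, which had 0 to 36 reads a library.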
